A study of Mus musculus with 7 samples.

Results

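The 10 genes described here make, break down, bind or sense retinoic acid. They were taken by name as Aldh1a1, Aldh1a2, Aldh1a3, Cyp26a1, Cyp26b1, Crabp1, Crabp2, Rara, Rarb and Rarg, all of which were found among the 30344 genes common to the libraries. Their transcripts were counted as UMIs (unique molecular identifiers, 1 per captured RNA molecule) by droplet single-cell RNA sequencing of whole mouse noses at embryonic day 14.5. One group was 5 wild-type (WT) libraries from CD1 IGS mice. The other was 2 libraries from a single nose labelled ProKR2iCre/R26tdTomato. It carried the alleles Prokr2em1(cre)Cfe, on a background written B6;SJL, and Gt(ROSA)26Sortm14(CAG-tdTomato)Hze, by which Cre made from the Prokr2 gene switches on a red reporter. All suspensions were frozen and thawed before loading. Per the labels' protocols that single suspension gave sorted and unsorted data sets, and the sample labels do not say which library is which. These libraries are called ProKR2iCre libraries 1 and 2 and are described without a test.

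WT replicates 3 and 4 shared 7386 of their 7396 and 7408 barcodes, while the next largest overlap of libraries was 34, so replicate 3 was left out. The 6 remaining libraries held 31465 cells that passed a minimum of 500 genes and a limit of 10% mitochondrial UMIs, from 1111 to 10496 in a library, at a median depth of 5126.5 to 13692 UMIs. Cells were placed in classes by markers that hold none of the 10 genes, and 82.3% to 94.1% of the cells of a library met a class. WT levels are given in the order of replicates 1, 2, 4 and 5, as UMIs per 1000000 (CPM) of all UMIs summed over the cells of a class in a library, a class needing at least 10 cells there. The labels name 5 WT noses but do not tie each library to one, so the p-values measure the spread between these 4 captures. The test set each class against the equally weighted mean of the other classes, so a gene that is very high in one class pulls the others below that mean. Levels were not divided by transcript length and are compared within a gene only.

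Retinal dehydrogenases of the Aldh1a family oxidise retinal to retinoic acid, and the cytochrome P450 enzymes of the Cyp26 family inactivate it. Inside the cell retinoic acid is held by the small binding proteins Crabp1 and Crabp2, and it acts through the nuclear receptors Rara, Rarb and Rarg, which bind DNA together with an RXR partner. In the developing face the balance of synthesis and breakdown sets where retinoic acid acts, and mice without Aldh1a3 are known to fail to open the nasal passages. Rarb and Cyp26a1 are textbook targets of retinoic acid, through a direct repeat of receptor half-sites with 5 bases between them.

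Those repeats are shown because they were found in the promoters of these members and of no other member. The letters are from RefSeq promoters of build GRCm38.p6, 250 bases before to 50 after each start, with the half-sites in capitals.
Rarb, chr14:16575507-16575535, minus strand: gggaagGGTTCAccgaaAGTTCActcgca
Cyp26a1, chr19:37697770-37697798, plus strand: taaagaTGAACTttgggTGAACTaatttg
The search took pairs of half-sites in the same direction on both strands. A half-site was AGTTCA or GGTTCA, or the variant AGGTCA or its partner GGGTCA, in any combination. The Rarb repeat spanned positions -53 to -37 from its RefSeq start, and the Cyp26a1 repeat spanned -32 to -16 and read on the opposite strand of that gene. A repeat with 5 bases between was present in 32 of 32851 promoters (0.097%). Of the 10 genes, 8 had 13 promoters in the table and 2, Aldh1a3 and Crabp2, had none. Repeats with 1 base (73 promoters, 0.222%) or 2 bases between (88 promoters, 0.268%) were in none of the 13. A match describes the letters and is no evidence of binding.

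In the GENCODE annotation of GRCm38 the synthesis genes lie apart, Aldh1a1 at chr19:20492715-20643465 (plus strand), Aldh1a2 at chr9:71215789-71296243 (plus) and Aldh1a3 at chr7:66390890-66427517 (minus). Cyp26a1 spans chr19:37697798-37701536 (plus) and Cyp26b1 chr6:84571414-84593908 (minus). Crabp1 is at chr9:54764748-54773110 (plus) and Crabp2 at chr3:87948666-87953376 (plus). The receptor genes are Rara at chr11:98927818-98974942 (plus), Rarb at chr14:16430839-16819156 (minus) and Rarg at chr15:102234938-102257517 (minus). UMIs were assigned to whole genes, so exons and isoforms are not told apart.

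Across 12 classes, 9 of the 10 genes passed the filter on low counts and Cyp26a1 did not. Of 108 pairs of a gene and a class, 60 (55.6%) passed an adjusted p of 0.05 in edgeR's quasi-likelihood test with Benjamini-Hochberg adjustment, 35 higher and 25 lower than the mean of the other classes. The same share over all 13230 genes tested was 35.3%, made of 21.9% higher and 13.3% lower. The median size of the difference was 1.22 on the log2 scale over the 9 genes and 0.457 over all genes. Of the 60 calls, 35 held without each of the 4 WT captures in turn. A further 3, all of Aldh1a1, held in the 3 such fits that tested the gene. Each of those fits kept WT replicate 1, the capture with 306 of its 454 UMIs, so these calls are not counted as held. Of the 60, 28 held in every alternative that tested them, and 22 were lost without at least 1 capture. In 8 of these 22, each fit that lost the call had a class with no UMI of the gene left, so that the mean of the other classes had no finite log value and the fit could not test a lower level.

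**Figure D1:**
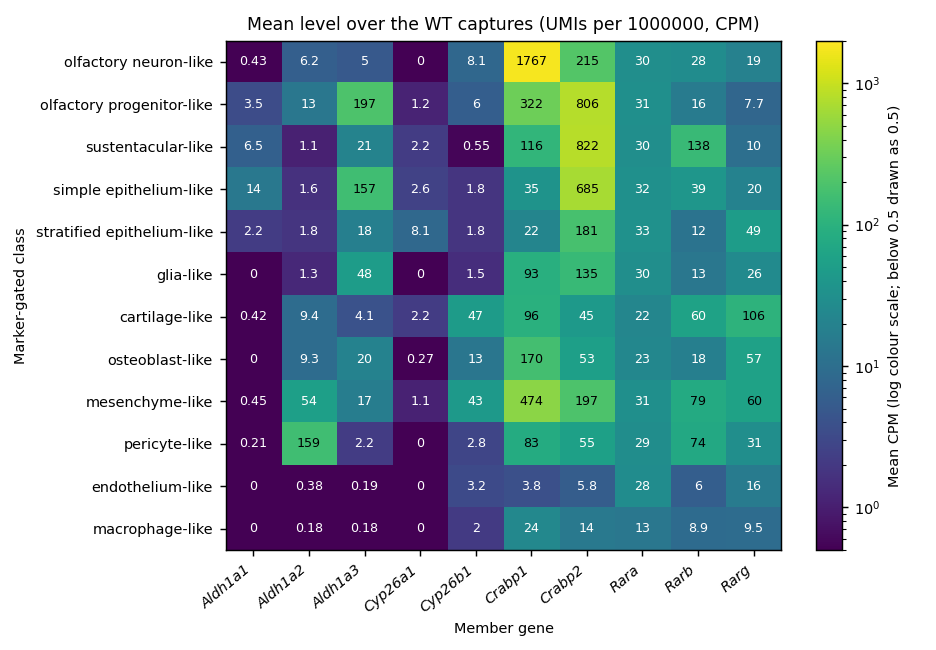
Mean level of each of the 10 genes (columns) in each marker-gated class (rows) over the WT captures, in UMIs per 1000000 on a logarithmic colour scale with the value printed. Of the classes tested, Aldh1a2 was highest in pericyte-like and mesenchyme-like cells, Aldh1a3 in progenitor-like and simple epithelium-like cells, Crabp2 in these and sustentacular-like cells, Crabp1 in olfactory neuron-like cells and Rarg in cartilage-like cells, while Rara was between 13.5 and 33.2 CPM in the 12 classes tested.

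Of the synthesis genes, Aldh1a2 was highest in pericyte-like and mesenchyme-like cells, and Aldh1a1 and Aldh1a3 in simple epithelium-like or progenitor-like cells. Aldh1a2 was 106, 85.7, 168 and 275 CPM in pericyte-like cells, the contractile support cells of small vessels (158.6 ± 85.2, SD, n = 4). In WT replicate 5, 51 of the 73 UMIs came from 1 of 11 cells. With a stricter gate, under which 3 captures kept 10 such cells and replicate 5 did not, the mean was 97.4 CPM. The ProKR2iCre libraries had only 8 and 5 such cells and give no level. In mesenchyme-like cells it was 57.2, 57.8, 42.5 and 60.3 CPM (54.4 ± 8.08, SD, n = 4). Every pericyte-like value was above every mesenchyme-like one, and no other class with all 4 captures had a mean above 9.35. Parts of the mesenchyme-like cells, given below by sub-gate, had means near that of pericyte-like cells. These were 164 CPM with Cldn11 and 162 CPM with Shox2 and Barx1. The log2 difference from the other classes was 5.30 (SE 0.30, adjusted p = 1.4e-18) for pericyte-like cells and 3.80 (SE 0.24, adjusted p = 1.0e-17) for mesenchyme-like cells. Because mesenchyme-like cells were the most numerous, they held 79.4% of all Aldh1a2 UMIs of the WT captures. The 8 mesenchyme markers summed to 2221 to 2725 CPM in pericyte-like cells against 4097 to 4507 in mesenchyme-like cells, and the 8 pericyte markers to 1963 to 2593 against 51.7 to 89.2. Cartilage-like cells were also called higher, at 9.35 ± 1.59 CPM (log2 difference 1.15, adjusted p = 0.0033), a call that held in 8 of 11 alternatives. The calls of Aldh1a2 as lower in endothelium-like, macrophage-like and simple epithelium-like cells were each lost without WT replicate 1 and without WT replicate 2, fits in which a class was at 0. The first and the third were also lost without WT replicate 4 (adjusted p = 0.068 and 0.081), and the first without WT replicate 5 as well (adjusted p = 0.057), so that the endothelium-like call held in none of the 4 fits. These classes had means of 0.379, 0.176 and 1.63 CPM.

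Aldh1a3 was highest in progenitor-like and simple epithelium-like cells. Its level in simple epithelium-like cells, the lining without basal keratins, was 43.0, 215, 190 and 179 CPM (156.8 ± 77.4, SD, n = 4), and the ProKR2iCre libraries had 159.6 and 39.7. WT replicate 1 was the low one and the other captures lay close together. The log2 difference was 4.01 (SE 0.26, adjusted p = 2.7e-17). Olfactory progenitor-like cells, the dividing and newly committed precursors of olfactory neurons, were called as well, at 13.9, 234 and 342 CPM in replicates 1, 2 and 4 (log2 difference 4.07, SE 0.49, adjusted p = 1.8e-08). That level rested on few cells: 23 of 35 UMIs in replicate 2 and 24 of 57 in replicate 4 came from 1 cell each. The mean was 196.8 CPM with all 3 captures, 288 without WT replicate 1 and 124 without WT replicate 4. Simple epithelium markers summed to 782 to 1859 CPM in progenitor-like cells and 3306 to 4448 in the simple epithelium-like class, and their part in the progenitor level was not tested.

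Glia-like cells formed a further place of Aldh1a3. The level was 15.9, 32.3, 107 and 38.7 CPM (48.5 ± 40.2, SD, n = 4), with 99.6 and 21.6 in the ProKR2iCre libraries, and the log2 difference was 2.01 (SE 0.46, adjusted p = 7.4e-04). WT replicate 4 was the highest capture, and without it the mean was 29.0 CPM and the difference 1.51. Simple epithelium markers in these cells were at 2.58 to 24.9 CPM summed over 8 genes. The glia-like cells' Aldh1a3 UMIs were spread over 15 of 136, 15 of 80, 19 of 41 and 9 of 20 cells. The part of RNA from other classes in this level was not tested. Osteoblast-like cells were called too at 19.8 ± 5.28 CPM (log2 difference 1.13, adjusted p = 0.025), a call lost without WT replicate 2 (adjusted p = 0.088) and without WT replicate 5 (adjusted p = 0.11). Mesenchyme-like cells had 17.1 ± 3.27 CPM and were not called. They held 44.1%, 21.8%, 37.2% and 43.0% of the Aldh1a3 UMIs of a capture, and simple epithelium-like cells 19.5%, 56.4%, 31.0% and 30.7%, so that mesenchyme-like cells held the larger share in all captures but WT replicate 2. The lower calls, in endothelium-like and macrophage-like cells, were lost without WT replicate 1, where both classes were at 0. The 62.2 CPM in 16 macrophage-like cells of ProKR2iCre library 1 came from 24 UMIs, 23 of them in 1 cell.

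Aldh1a1 was a rare transcript, with 454 UMIs in all WT cells, of which 272 (59.9%) were in simple epithelium-like cells. It was at 33.3, 6.11, 6.86 and 8.85 CPM there and at 11.9 and 3.61 CPM in the ProKR2iCre libraries. The high value was again that of a single capture, WT replicate 1, where 41 of 199 UMIs came from 1 cell, and the mean was 13.8 CPM with it and 7.27 without it. Sustentacular-like cells, the supporting cells of the olfactory epithelium, had 19.4, 3.29, 3.09 and 0 CPM, so the captures of both classes overlapped. Stratified epithelium-like cells had 2.71, 2.79, 2.62 and 0.547 CPM, and all 3 epithelial classes were called higher. Olfactory progenitor-like cells were called (adjusted p = 0.048) on 3 UMIs of WT replicate 1, and the call was lost without WT replicate 2 (adjusted p = 0.073) and without WT replicate 5 (adjusted p = 0.066). Without WT replicate 1 the gene did not pass the filter, so none of its calls has a value there. No UMI was seen in glia-like, osteoblast-like, endothelium-like or macrophage-like cells. A count of 3 UMIs over the 4 captures, the limit that a count of 0 allows, would be 1.06, 0.326, 0.695 and 1.06 CPM in these classes. With these classes at 0 the fitted differences of Aldh1a1 depend on the prior count of the model and are not given, and its 4 calls rest on classes with no UMI. Limits of this kind cover counting error only.

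**Figure D2:**
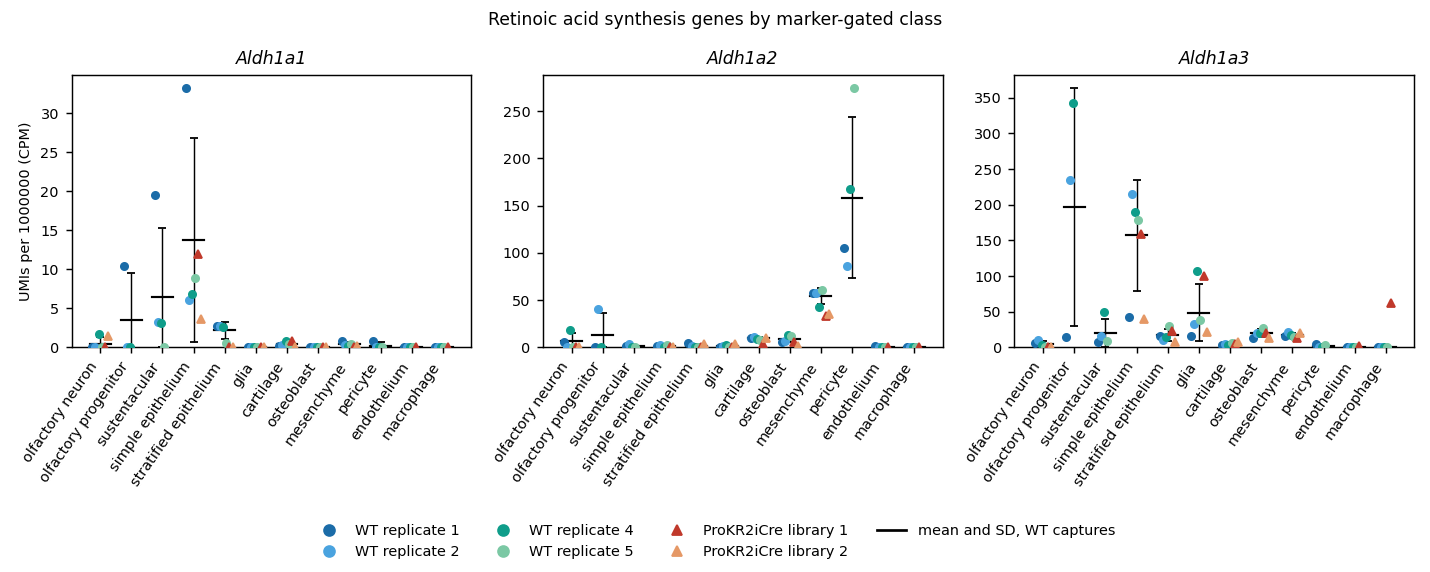
Levels of the synthesis genes in UMIs per 1000000 (vertical axis, linear, from 0) in each class (horizontal axis). Circles are WT captures, triangles are ProKR2iCre libraries, and black bars are the mean and SD of the WT captures. The Aldh1a2 peak in pericyte-like cells, between 85.7 and 275 CPM, and the Aldh1a3 peaks in simple epithelium-like and progenitor-like cells do not coincide, and WT replicate 1 is the highest WT capture of Aldh1a1 and the lowest WT capture of Aldh1a3 in simple epithelium-like cells.

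Of the breakdown enzymes, Cyp26b1 was found in skeletal and connective tissue. In cartilage-like cells it was 26.3, 41.7, 62.9 and 56.8 CPM (46.9 ± 16.4, SD, n = 4), and in mesenchyme-like cells 25.9, 35.7, 62.4 and 47.2 CPM (42.8 ± 15.7, SD, n = 4). The captures of these classes overlapped, although cartilage-like cells were the higher of the pair in 4 of 4 captures. The log2 differences from the other classes were 3.70 (SE 0.19, adjusted p = 7.7e-21) and 3.49 (SE 0.18, adjusted p = 6.1e-20). Osteoblast-like cells had 3.95, 14.2, 18.6 and 15.2 CPM (log2 difference 1.66, adjusted p = 1.0e-05), below every mesenchyme-like capture. Their call held in 8 of 10 alternatives. Mesenchyme-like cells held 67.6% of all Cyp26b1 UMIs and cartilage-like cells 19.0%. The other 9 classes tested had means of at most 8.05 CPM. The untested other neuron-like cells had 5.07, 207 and 22.7 CPM in replicates 1, 2 and 5, the second from 10 UMIs in 4 of 11 cells. Pericyte-like cells, the class with the most Aldh1a2, had 4.16, 7.14, 0 and 0 CPM of Cyp26b1. Sustentacular-like (2 UMIs in all) and simple epithelium-like cells were called lower, both calls being lost without WT replicate 4, where progenitor-like cells were at 0.

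Cyp26a1 was the rarest of the 10 genes, with 410 UMIs in all WT cells, and was not tested. Stratified epithelium-like cells, the keratin 5 and keratin 14 layer, had 11.5, 3.30, 1.31 and 16.4 CPM (8.12 ± 7.06, SD, n = 4), and the ProKR2iCre libraries had 6.27 and 0. This was the class with the highest mean, but its range overlapped that of simple epithelium-like cells, where the captures had 1.17, 3.53, 5.57 and 0 CPM. In WT replicate 5, 12 of the 30 UMIs of stratified epithelium-like cells came from 1 cell. The mean was 5.35 CPM without WT replicate 5 and 4.21 CPM with cells thinned to 2000 UMIs. Cartilage-like cells had 2.20, 1.30, 0.599 and 4.69 CPM, and 3.33 and 13.7 in the ProKR2iCre libraries, where 5 of 8 and 6 of 7 UMIs came from 1 cell each. Mesenchyme-like cells, at 3.15, 0.524, 0.232 and 0.531 CPM, held 154 of the 410 UMIs (37.6%) through their number, against 82 (20%) in stratified epithelium-like cells. No Cyp26a1 UMI was seen in WT olfactory neuron-like, glia-like, endothelium-like, pericyte-like or macrophage-like cells, where 3 UMIs over the captures would be 1.37, 1.06, 0.695, 1.43 and 1.06 CPM.

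The binding protein genes had their highest levels in different classes, while mesenchyme-like cells held the largest share of the UMIs of both. Crabp1, which holds retinoic acid in the cytoplasm, was 2251, 1612, 2005 and 1200 CPM in olfactory neuron-like cells (1767 ± 460, SD, n = 4), above every capture of the other 11 classes tested. The mean was 2630 CPM with thinned cells and 2710 CPM as a mean of the cells' own CPM. The log2 difference was 4.45 (SE 0.20, adjusted p = 3.7e-23). Other neuron-like cells, a class left out of the tests, had 10.1, 889 and 1382 CPM in replicates 1, 2 and 5, from 28, 11 and 10 cells. Mesenchyme-like cells were next of the tested classes with 361, 639, 484 and 410 CPM (log2 difference 2.54, SE 0.21, adjusted p = 5.3e-14) and, being many, held 71.1% of Crabp1 UMIs. The 8 mesenchyme markers summed to 210 to 345 CPM in olfactory neuron-like cells, against 4097 to 4507 in mesenchyme-like cells. Progenitor-like cells had 386, 341 and 240 CPM and osteoblast-like cells 95.7, 164, 220 and 200 CPM, and both were called higher (log2 differences 1.63 and 1.11). Endothelium-like (log2 difference -4.34), stratified epithelium-like (-2.14), macrophage-like (-1.98) and simple epithelium-like cells (-1.55) were called lower. All 8 Crabp1 calls held without each WT capture. The osteoblast-like call held in 9 of 11 alternatives and the simple epithelium-like call in 10 of 11.

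Olfactory neuron-like cells were not uniform in Crabp1. After each cell was thinned to 2000 UMIs, between 45.5% and 84.7% of these cells had a Crabp1 UMI in a WT capture, with 64.8%, 68.5%, 87.1% and 58.3% before thinning. Macrophage-like cells, taken as a class that should lack the gene, had a share of 0% to 4.76% thinned and 3.57% to 11.6% unthinned. The median depth was 5908 to 14282 UMIs for olfactory neuron-like cells and 8468 to 15626 for macrophage-like cells. The ProKR2iCre libraries had 1089 and 251.2 CPM and thinned shares of 33.3% of 12 cells and 13.6% of 177 cells, all below the WT captures. Some markers of these cells also lay outside the WT range there. Gap43, a growth cone protein gene, was 1450, 806, 470 and 1449 CPM in the WT cells and 2472 and 3486 CPM in the ProKR2iCre libraries. Of the other markers, Gng8 was below its WT range of 868 to 1232 CPM in both libraries (639 and 669 CPM), and Lhx2 (478 CPM) and Fezf1 (60.1 CPM) were below theirs in library 2. Ebf2, Omp, Cnga2 and Gfy were within the WT range. The part of these markers in the Crabp1 difference was not tested, and genotype, strain, sorting and library cannot be told apart.

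Crabp2, which carries retinoic acid to the nuclear receptors, was highest in sustentacular-like, progenitor-like and simple epithelium-like cells. It was 811, 1117, 535 and 827 CPM in sustentacular-like cells (822 ± 238, SD, n = 4), 605, 1044 and 769 CPM in progenitor-like cells and 581, 991, 519 and 648 CPM in simple epithelium-like cells. These 3 classes overlapped each other, and each capture of each of them was above every capture of the other 9 classes tested. Their log2 differences were 2.98 (SE 0.20, adjusted p = 2.1e-16), 2.79 (SE 0.27, adjusted p = 1.1e-10) and 2.74 (SE 0.19, adjusted p = 9.0e-16). Between 62.2% and 82.1% of cells thinned to 2000 UMIs had a Crabp2 UMI in the sustentacular-like and simple epithelium-like captures, against 0% to 3.85% of macrophage-like cells. Mesenchyme-like cells, at 197 ± 31.4 CPM, were called higher by 0.84, and held 42.6% of Crabp2 UMIs. Olfactory neuron-like cells, at 123, 448, 219 and 70.2 CPM, were called higher by 0.81 (adjusted p = 0.0099), a call lost without WT replicate 2 (adjusted p = 0.21). Stratified epithelium-like cells (181 ± 52.6 CPM) were called higher by 0.74, lost without WT replicate 1 (adjusted p = 0.22).
Crabp2 was called lower in cartilage-like (-1.43), macrophage-like (-3.12) and endothelium-like cells (-4.39) with every capture left out in turn. The lower calls in osteoblast-like cells (-1.11, lost without WT replicate 2 at an adjusted p of 0.078) and pericyte-like cells (-1.00, lost without WT replicates 1, 4 or 5) were less firm.

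**Figure D3:**
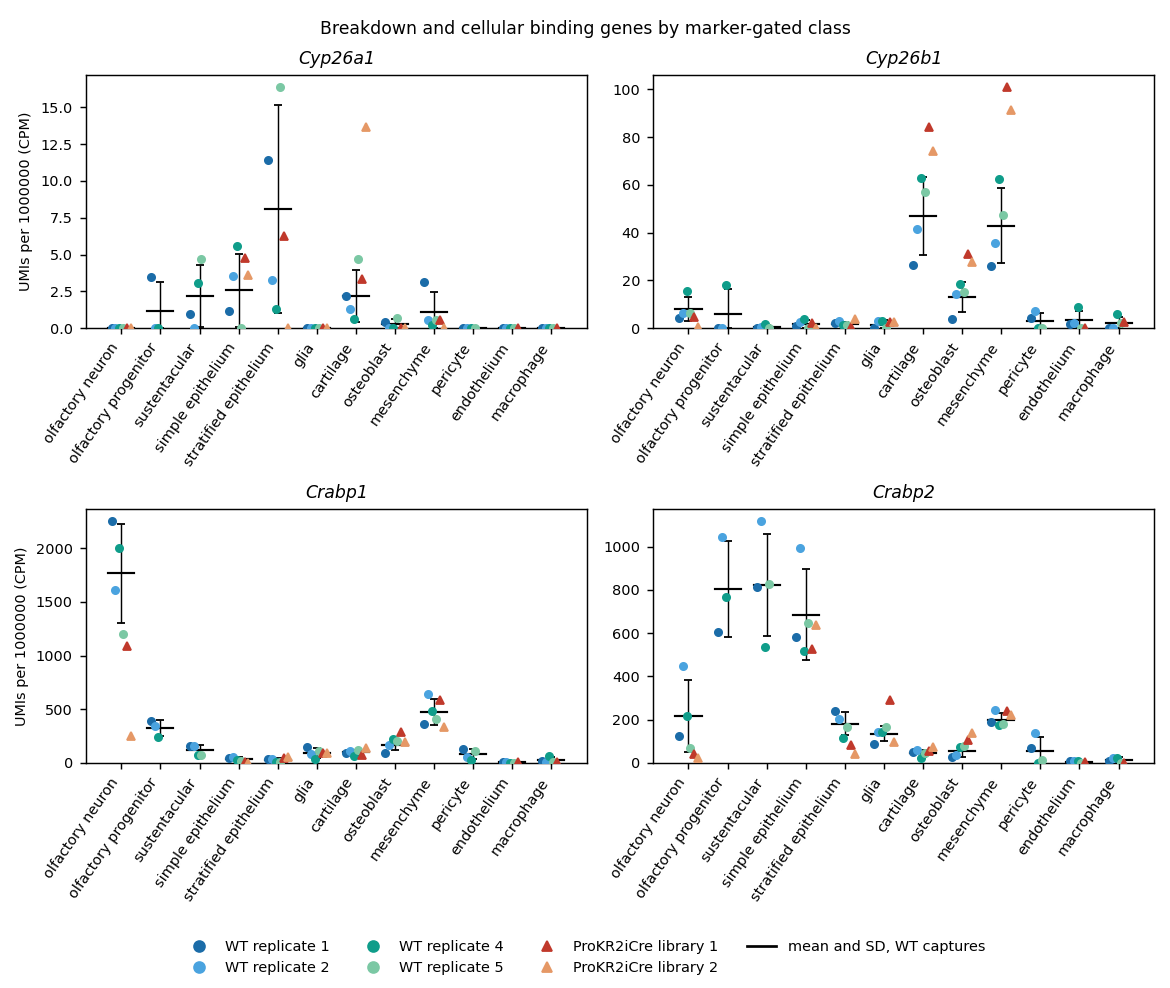
Levels of the breakdown and binding genes in UMIs per 1000000 (vertical axes, linear, from 0, scaled per gene) by class, drawn as for the synthesis genes. Cyp26b1 is shared by cartilage-like and mesenchyme-like cells, Crabp1 peaks in olfactory neuron-like cells at 1200 to 2251 CPM in the WT captures, and Crabp2 peaks in the sustentacular-like, progenitor-like and simple epithelium-like classes.

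The receptors ranged from broad to local. Rara was between 22.5 and 33.2 CPM on average in 11 of the classes tested, whose captures overlapped, and 9.83, 8.92, 17.9 and 17.3 CPM in macrophage-like cells. The macrophage-like class was called lower (log2 difference -0.87, SE 0.22, adjusted p = 9.3e-04), and this held without each capture. Higher calls in endothelium-like (0.44, adjusted p = 0.023) and stratified epithelium-like cells (0.33, adjusted p = 0.041) were each lost without WT replicate 1 and without WT replicate 2, the second also without WT replicate 5.

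Rarg had its peak in cartilage. The level was 94.3, 101, 116 and 113 CPM in cartilage-like cells (106 ± 10.3, SD, n = 4), above every capture of the other classes tested, and 109 and 139 CPM in the ProKR2iCre libraries. The log2 difference was 2.34 (SE 0.11, adjusted p = 2.4e-22). Mesenchyme-like (60.3 ± 7.38 CPM), osteoblast-like (56.9 ± 13.9 CPM) and stratified epithelium-like cells (49.2 ± 4.84 CPM) were called higher as well, by 1.38, 1.44 and 1.11. Their captures overlapped in order of level. Sustentacular-like cells, with 10.4, 11.2, 10.8 and 9.34 CPM, were called lower (log2 difference -1.36, adjusted p = 5.0e-06), as were macrophage-like cells (-1.48), both with each capture left out. The lower calls in progenitor-like (-1.89, lost without WT replicate 4, adjusted p = 0.057), endothelium-like (-0.88, lost without WT replicate 1, adjusted p = 0.087) and simple epithelium-like cells (-0.43, lost without WT replicates 2 or 4) depended on single captures.

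Rarb, the receptor gene that retinoic acid itself induces, had another pattern. It was 49.3, 143, 189 and 173 CPM in sustentacular-like cells (138 ± 62.4, SD, n = 4), with a log2 difference of 2.61 (SE 0.24, adjusted p = 3.6e-12). The mean was 84.8 CPM with thinned cells, and 85.4 CPM with a stricter gate, which kept 10 such cells in replicates 1 and 2 only. Mesenchyme-like cells had 30.6, 94.1, 91.9 and 97.8 CPM (log2 difference 1.84, adjusted p = 3.2e-10), pericyte-like cells 26.6, 88.1, 57.6 and 124 CPM (1.69, adjusted p = 1.7e-04) and cartilage-like cells 14.3, 55.9, 68.1 and 101 CPM (1.29, adjusted p = 5.0e-06). These classes overlapped, and WT replicate 1 was the lowest capture in each of them. With classes taken from clusters in place of single-cell marker gates, Rarb in cartilage-like cells was -0.05 from the other classes (adjusted p = 0.93). The call in simple epithelium-like cells (0.63) was lost without WT replicate 4 (adjusted p = 0.65), and the lower calls in endothelium-like, macrophage-like and stratified epithelium-like cells were all lost without WT replicate 2, where progenitor-like cells were at 0, and that in macrophage-like cells also without WT replicate 1 (adjusted p = 0.063).

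The low Rarb of WT replicate 1 went along with a property of that library. Rarb has 383.1 kb of introns. In mesenchyme-like cells, 1624 genes with introns above 100 kb had a median log2 ratio of -1.72 in WT replicate 1 against the mean of the other WT captures, and 1967 genes with introns under 5 kb had 0.127. Rarb itself was at -1.63. ProKR2iCre library 1 had the same shape (-1.44 and 0.0860, with Rarb at -2.71), and library 2 did not (0.128 and -0.0320, with Rarb at -0.276). WT replicate 1 was counted with Cell Ranger 6.0.1, the other WT libraries with 7.0.0 and both ProKR2iCre libraries with 6.1.2. Whether intronic reads were counted is not given in the sources used here, and the part of counting in the Rarb levels was not tested. Without WT replicate 1 the Rarb difference was 2.48 in sustentacular-like and 1.57 in mesenchyme-like cells.

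**Figure D4:**
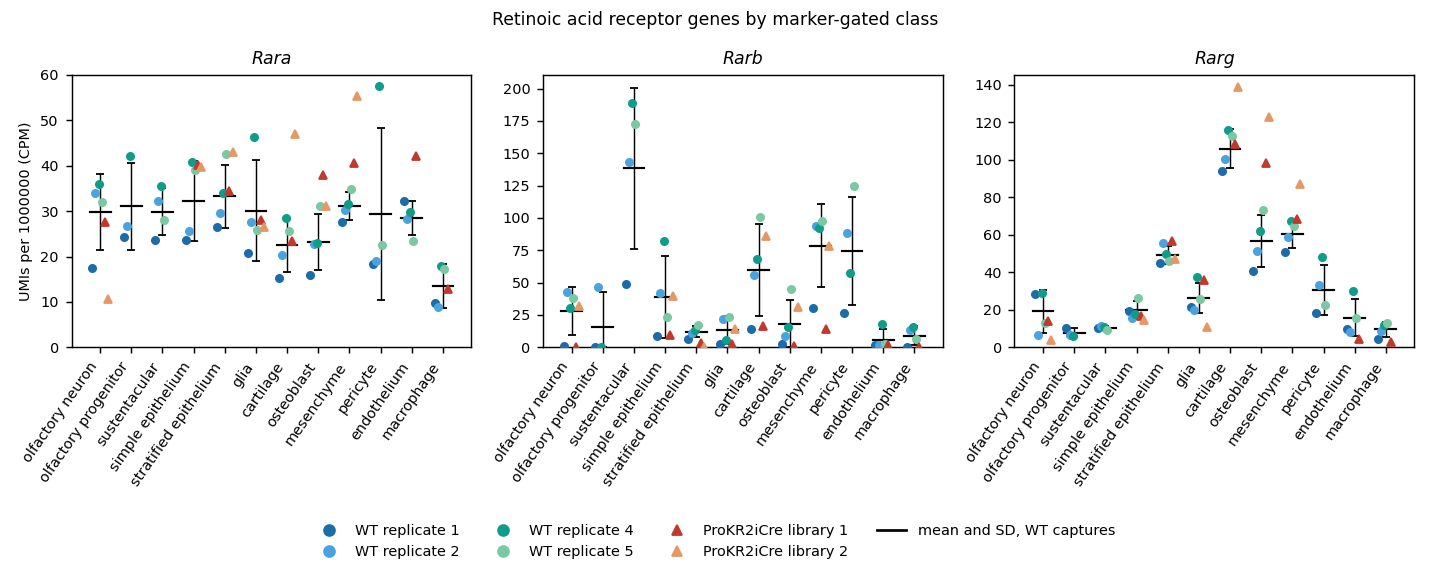
Levels of the 3 receptor genes in UMIs per 1000000 (vertical axes, linear, from 0, scaled per gene) by class, drawn as for the synthesis genes. Rara is nearly flat, Rarb is highest in sustentacular-like cells with WT replicate 1 and ProKR2iCre library 1 at the bottom of most classes, and Rarg in cartilage-like cells lies between 94.3 and 116 CPM in the WT captures.

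Read by class, mesenchyme-like cells carried 8 of the 10 genes at 10 CPM or more in every WT capture, all but Aldh1a1 and Cyp26a1, so transcripts for synthesis, breakdown, binding and sensing were all present there. Of the 9 genes tested, 6 were called in mesenchyme-like cells, all higher, where 40.2% of all genes were called. Cartilage-like cells had 6 genes at that level and 5 of 9 called (background 42.6%). Simple epithelium-like cells had 5 at that level and 8 of 9 called, 4 in each direction (background 37.7%). Stratified epithelium-like cells had 6 called (background 33.0%), sustentacular-like cells 5 (background 33.0%), osteoblast-like cells 5 (background 35.5%) and progenitor-like cells 5 (background 19.7%).
Pericyte-like cells had 3 called (background 20.2%): Aldh1a2 and Rarb higher and Crabp2 lower. Olfactory neuron-like cells, where 52.3% of all genes were called, had 2, Crabp1 and Crabp2. Glia-like cells had 1, Aldh1a3 (background 21.9%). In endothelium-like cells 7 were called (background 39.4%), Rara alone of them higher, and in macrophage-like cells 7 were called, all lower (background 47.6%). Endothelium-like cells had 1 gene, Rara, at 10 CPM or more in every capture and macrophage-like cells none.

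Mesenchyme-like cells were also compared by marker sub-gate, for all of the 10 genes but Aldh1a1 and Cyp26a1, which did not pass the filter there. The sub-gates were defined by Cldn11, Shox2 with Barx1, Pax9 with Mecom, Foxp2 with Erg, Osr1 with Mab21l2, or Twist2, and they were chosen with earlier results of these data known. Over 8 of the 10 genes and 7 groups of cells, 22 of 56 pairs (39.3%) were called, 11 in each direction, where 13.2% of all pairs of the 11089 genes tested were called, 7.17% higher and 6.01% lower. Of these 22, 14 held without each capture in turn. Both counts include Aldh1a2 in Cldn11 mesenchyme, a pair already known when that sub-gate was chosen, so they give no test of an excess.

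Cldn11 mesenchyme had Aldh1a2 of 137, 126, 174 and 218 CPM (164 ± 41.5, SD, n = 4), with 146.5 in 25 cells of ProKR2iCre library 1. Earlier results of these data had paired Cldn11 with Aldh1a2 when this sub-gate was chosen, so its Aldh1a2 is a description and no test of it is given. The same cells had the least Cyp26b1 of the sub-gates in each WT capture, 9.92, 5.33, 2.92 and 19.7 CPM (log2 difference from the other sub-gates -1.95, SE 0.27, adjusted p = 3.6e-06), and the most Rarb, 84.3, 245, 405 and 352 CPM (1.83, SE 0.18, adjusted p = 2.0e-08). Rarb was highest in this sub-gate in each of the 4 WT captures and in ProKR2iCre library 1 (131 CPM). Crabp1 was lower there (-1.42, adjusted p = 1.6e-05). The calls of Aldh1a3 (1.07) and Rarg (-0.39) were lost without WT replicate 1, among others. Of the 8 genes, those called in Cldn11 mesenchyme besides Aldh1a2 were Cyp26b1, Rarb, Crabp1, Aldh1a3 and Rarg (background 19.0%).

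Twist2 mesenchyme, which carries a dermal marker, had the opposite profile. Its Aldh1a2 was 33.9, 10.0, 4.50 and 14.2 CPM (log2 difference -2.65, SE 0.39, adjusted p = 7.7e-06) and its Aldh1a3 was lower by -2.02 (adjusted p = 1.3e-04). Crabp1 was 1451, 1366, 858 and 698 CPM (1.78, SE 0.16, adjusted p = 1.4e-09), above each other sub-gate within every WT capture. Cyp26b1 was 29.9, 41.4, 90.3 and 51.5 CPM and was called higher by 0.78 (adjusted p = 1.1e-04), and Rarb was called lower by -1.40 (adjusted p = 2.2e-05). With Rara (-0.29, lost without WT replicates 2 or 4), 6 of 8 genes were called (background 28.1%).

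Foxp2 Erg mesenchyme was the other sub-gate with higher Cyp26b1, at 30.1, 58.4, 85.7 and 65.7 CPM (log2 difference 1.00, SE 0.17, adjusted p = 9.1e-05), and it had lower Crabp2 (-1.11, adjusted p = 1.1e-05). Its further calls, Aldh1a3 (-1.39) and Rarg (0.36), were lost without single captures, giving 4 of 8 genes called (background 21.0%). Shox2 Barx1 mesenchyme had the highest mean Aldh1a3 of the sub-gates, 16.8, 123, 116 and 47.6 CPM (2.12, SE 0.32, adjusted p = 3.3e-04), and Aldh1a2 of 61.7, 264, 238 and 83.9 CPM (1.32, adjusted p = 0.033, lost without WT replicates 2 or 4). WT replicate 1 was the lowest capture for both genes. Its Crabp1 was called lower (-0.84), a call lost without WT replicates 2 or 4, so that 3 of 8 genes were called (background 2.4%).
Osr1 Mab21l2 mesenchyme had Crabp2 of 264, 357, 264 and 273 CPM (0.82, SE 0.13, adjusted p = 1.1e-04) and lower Rarb, at 11.4, 41.2, 18.7 and 69.7 CPM (-1.72, SE 0.27, adjusted p = 1.0e-04). Its Crabp1 call (0.58) was lost without WT replicates 2, 4 or 5, and 3 of 8 genes were called (background 8.58%). None of the 8 genes was called in Pax9 Mecom mesenchyme (background 11.2%) or in the remaining mesenchyme-like cells (background 2.07%).

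The highest Cyp26b1 of any group with 10 cells in a library was in cells with Sox2 and Sox18, markers of dermal condensates, the cell clusters under forming hair or whisker follicles. They reached 10 cells in the ProKR2iCre libraries only. Cyp26b1 was 454 CPM in 10 cells of library 1 (exact 95% Poisson interval 333 to 603) and 332 CPM in 80 cells of library 2 (295 to 372). Of these cells, 8 of 10 and 65 of 80 had a Cyp26b1 UMI, and 6 of 10 and 33 of 80 after thinning to 2000 UMIs, at median depths of 10983 and 11150 UMIs. Of the macrophage-like cells of library 1, taken as a class that should lack the gene, 1 of 16 had one and 0 of 15 after thinning, at a median depth of 22109 UMIs. Aldh1a2 was at 0 and 2.26 CPM in the same cells. The intervals cover counting error only, and no test was possible with 1 nose.

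**Figure D5:**
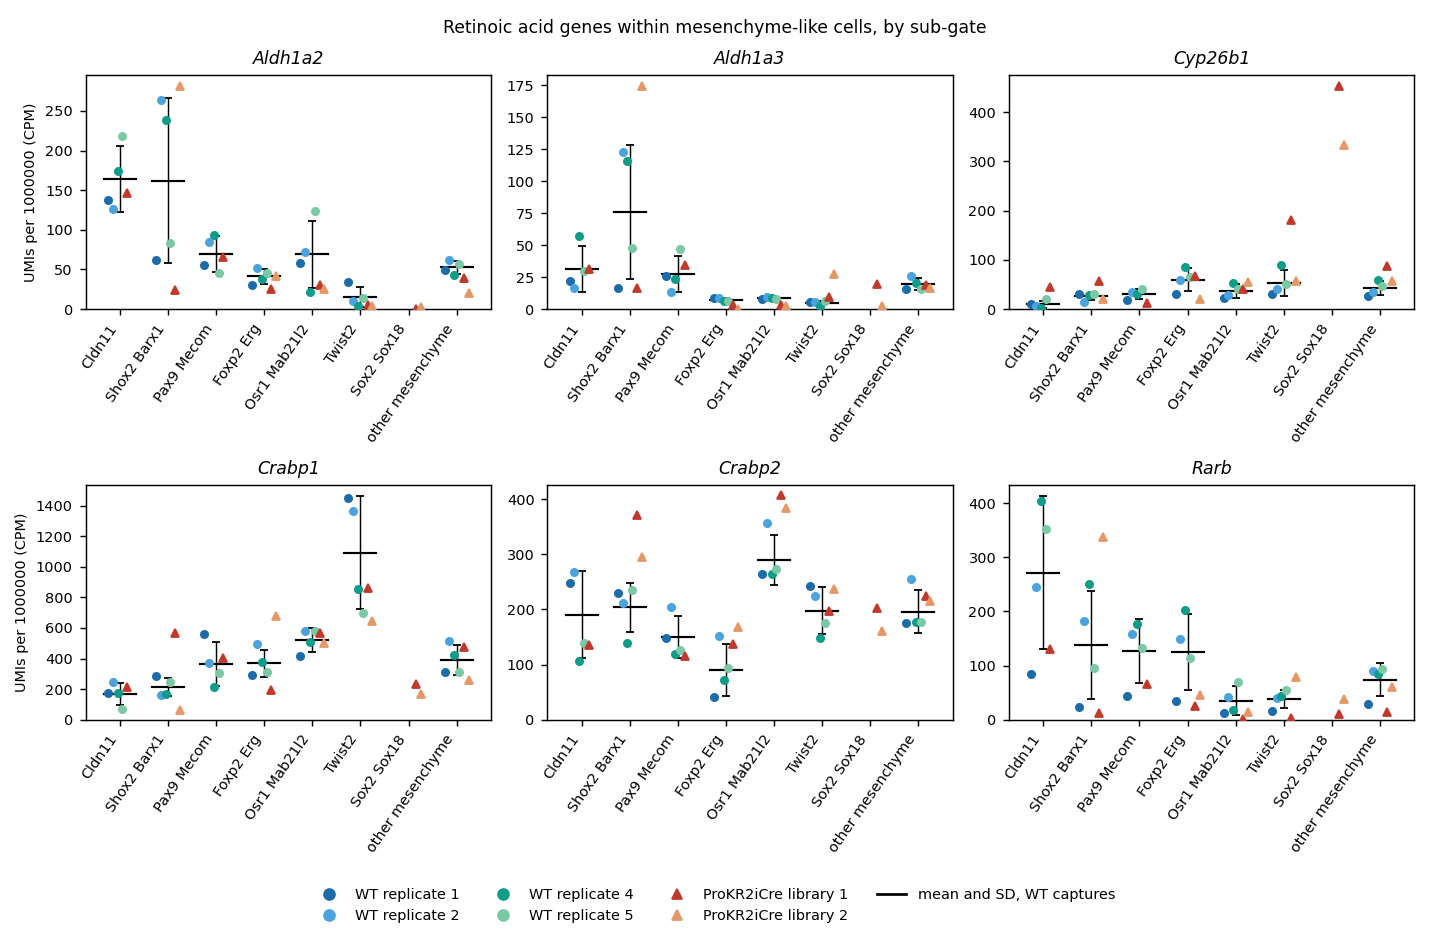
Levels of 6 of the genes in UMIs per 1000000 (vertical axes, linear, from 0, scaled per gene) by mesenchyme sub-gate, drawn as for the synthesis genes. Cldn11 mesenchyme combines high Aldh1a2 and Rarb with Cyp26b1 of at most 19.7 CPM in the WT captures, Twist2 mesenchyme has Crabp1 of 698 to 1451 CPM, and the Sox2 Sox18 cells of the ProKR2iCre libraries stand above all others in Cyp26b1.

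In the 7 classes with 10 cells in all 6 libraries, 70 levels of the 10 genes were set beside the WT range. Both ProKR2iCre libraries lay above it in 9, below it in 8, within it in 20 and on opposite sides in 2. The share over all genes is not given here, so these counts are not read as particular to the 10 genes. Some rest on very low levels: Aldh1a1 in stratified epithelium-like cells was 0 in both libraries, beside a WT minimum of 0.547 CPM. The simple and stratified epithelium-like classes of library 2 held 12 cells each. Cyp26b1 was above the WT range in all 3 classes where it was abundant, at 84.1 and 74.3 CPM in cartilage-like cells, 101 and 91.5 CPM in mesenchyme-like cells and 31.0 and 27.5 CPM in osteoblast-like cells. Sox2 Sox18 cells were 10 of 1100 and 80 of 673 of the mesenchyme-like cells in these libraries and 13 of 15867 in the WT captures. Without them, a step added after the data were seen, the mesenchyme-like levels were 98.7 and 63.7 CPM, beside 62.4 in the highest WT capture. Aldh1a2 was below it in mesenchyme-like cells, at 33.3 and 35.6 CPM. Rarg was above it in mesenchyme-like cells (68.4 and 87.0 CPM) and osteoblast-like cells (98.5 and 123 CPM), and Rara likewise (40.5 and 55.3 CPM, 38.0 and 31.2 CPM). Crabp2 was below it in olfactory neuron-like cells (41.4 and 23.5 CPM) and above it in osteoblast-like cells (104 and 137 CPM). The 2 libraries came from 1 nose of another strain, so none of these has a replicate.

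Other genes of the pathway were taken from a list of 32, of which 21 passed the filter on low counts. Of 252 pairs of a listed gene and a class, 99 (39.3%) were called, near the 35.3% over all genes, 60 of them higher and 39 lower, and 66 held without each capture. The median size of their differences was 0.468 on the log2 scale, beside 0.457 over all genes.
Retinol uptake and handling came first. Stra6, the retinol transporter gene, was called higher in simple epithelium-like (2.36, 15.9 ± 7.04 CPM) and mesenchyme-like cells (1.91, 11.1 ± 3.14 CPM). Rdh10, which makes the retinal that Aldh1a enzymes use, was called higher in simple epithelium-like (1.78, 24.9 ± 11.4 CPM), mesenchyme-like and cartilage-like cells (1.06 each) and lower in olfactory neuron-like cells (-2.76). Rdh5, another retinol dehydrogenase gene, was called higher in pericyte-like cells (3.25, 33.5 ± 11.7 CPM), and Dhrs3, which turns retinal back to retinol, in macrophage-like cells (2.58, 61.7 ± 18.4 CPM). Fabp5, a fatty acid-binding protein gene whose product can also bind retinoic acid, was called higher in stratified epithelium-like cells (2.42, 3174 ± 825 CPM) and lower in sustentacular-like cells (-1.74).

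Among receptor partners, Rxrg was called higher in glia-like cells (46.5 ± 5.74 CPM) and cartilage-like cells (8.62 ± 3.95 CPM), and Rxra in glia-like (1.18) and stratified epithelium-like cells (1.17). The coactivator gene Ncoa1 was called higher in olfactory neuron-like cells (2.94, 423 ± 191 CPM) and Ncoa3 in macrophage-like cells (2.39, 75.0 ± 17.6 CPM). Of the genes listed as known targets, Tgm2 was called higher in cartilage-like cells (4.38, 40.6 ± 5.22 CPM). Meis1 and Meis2 were called higher in stratified epithelium-like (2.46 and 2.88) and simple epithelium-like cells (2.34 and 2.27), and lower in glia-like cells (-2.65 and -3.10). Nrip1 was called higher in simple epithelium-like cells (0.74) and lower in cartilage-like cells (-0.66). Each of these pathway calls passed an adjusted p of 0.05 with all captures and with each left out in turn.

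For likeness of pattern, 8735 genes with at least 20 CPM in some class of every capture were correlated with each gene on log2(CPM + 1) over the 47 WT sums of a capture and a class. The points share captures and depth, so Pearson's r is a description. WT replicate 1, low in Rarb and in genes with long introns, is among these captures, and its part in r was not tested. Aldh1a2 was most like Tnmd (0.89), Ednra (0.88) and Pdgfrb (0.88), and Aldh1a3 most like Id2 (0.78), Hmgn1 (0.76) and Polr3k (0.72). Cyp26b1 was most like Clmp (0.77), Dnm3os (0.76) and Zim1 (0.75). Crabp1 followed Fam171b (0.92), Ccdc157 (0.83) and Ncam1 (0.81), and Crabp2 followed Bex1 (0.90), Bex4 (0.89) and Hmgn1 (0.82). For the receptors the closest were Zfp462 (0.83), Ehmt1 (0.81) and Tead1 (0.81) for Rara, Ror1 (0.80), Klhl9 (0.78) and Ptprd (0.77) for Rarb, and Sox6 (0.84), Tmem45a (0.82) and Prkg2 (0.82) for Rarg. Among the members themselves, Aldh1a3 and Crabp2 had r = 0.75, and Cyp26b1 and Rarg 0.63. Aldh1a1 and Cyp26a1 were too low for this comparison.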

How the data were processed

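Raw UMI counts per gene and cell were used as deposited, and the matrix headers show no normalization. The submitters' processing notes name Cell Ranger 4, Seurat 4.3.0 and mm10, while the headers of the deposited matrices name later versions of Cell Ranger (WT replicate 1: 6.0.1, other WT libraries: 7.0.0, ProKR2iCre libraries: 6.1.2). The annotation and the handling of intronic reads are not given in the sources used here. Gene positions are from GENCODE for GRCm38.

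Libraries held 16773781 to 89800259 UMIs. A class needed UMIs from 4 of 8 markers (3 for shorter or sparser lists). A cell that met gates of separate class families took the one ahead by at least 3 markers and was otherwise left out. Overlaps among neuron classes and among epithelial classes were settled by fixed rules. Cartilage-like, osteoblast-like, pericyte-like and muscle-like cells could also meet the mesenchyme gate. Neuron-like cells with few olfactory markers were left out of the tests. A condition on cells that also met the mesenchyme gate was added after member values were seen. Doublets were otherwise not removed, since Scrublet's automatic threshold marked at most 0.333% of a library. Counts were summed per capture and class (47 sums of 11 to 5162 cells) or mesenchyme sub-gate (28 sums) and tested with edgeR 4.0.16 in R 4.3.3 (TMM, filterByExpr, capture as a block, quasi-likelihood test, Benjamini-Hochberg within a contrast, gate markers left out, threshold 0.05). On simulated data with 4-fold changes in the simple epithelium-like class, 98.9% of 177 changed genes were recovered, with 4 false calls among 179. With such changes in Cldn11 mesenchyme, 99% of 195 were recovered, with 17 false calls among 210. Apart from these changes, each gene had the same mean share in every simulated sum, with a fixed dispersion and no capture effect. The simulation therefore did not cover the class and capture differences of the real sums. Alternatives included DESeq2 1.42.0. Shares of cells were computed after thinning to 2000 UMIs per cell.

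All 10 members are named, and the other genes by rule: pathway genes called in the same direction without each WT capture, and the 3 genes most like each member. The values of 1 pathway gene are not reported here. The members, lists and sub-gates were chosen with earlier results of these data known.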

Additional observations from a re-analysis of the deposited data

Results flagged for a closer look

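Of 114 mean levels of at least 10 CPM examined over the 4 WT captures, 7 had 1 capture that stood apart from the other 3 by Dixon's criterion, where chance gives about 1 in 20. WT replicate 1 stood apart in 3 of them. Its Aldh1a1 in simple epithelium-like cells was 33.3 CPM against 6.11 to 8.85 in the others. This level passed the minimum of 10 CPM only through that capture, with a mean of 13.8 CPM with it and 7.27 without it. Its Rarb was 30.6 CPM in mesenchyme-like cells against 91.9 to 97.8, and 28.5 CPM in the mesenchyme-like cells outside the sub-gates against 84.3 to 92.8. WT replicate 2 stood apart in another 3. Its Cyp26b1 in Shox2 Barx1 mesenchyme was 14.7 CPM against 28.0 to 30.8, its Crabp2 in Osr1 Mab21l2 mesenchyme 357 CPM against 264 to 273, and its Crabp2 in the mesenchyme-like cells outside the sub-gates 255 CPM against 175 to 177. Rara in pericyte-like cells was 57.6 CPM in WT replicate 4 and 18.3 to 22.6 in the others. The 63 class effects compared between WT and ProKR2iCre libraries held none with opposite directions in all samples.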

How the results depend on the processing

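The number of called pairs of a member and a class was 60, and 48 to 57 without 1 capture. It was 54 with DESeq2, 73 without the filter on low counts and 50 with clusters in place of gates. It fell to 35 of 72 pairs with cells thinned to 2000 UMIs. There fewer genes passed the filter, and of the 60 calls still tested 34 held and 14 fell short of the threshold. Without the replicate block, that is without pairing classes by capture, the counts were 47 for members by class, 11 of 22 for members by sub-gate and 64 of 99 for pathway genes. Without 1 capture these were 15 to 19 by sub-gate and 77 to 90 for pathway genes. Rarb in cartilage-like cells turned to -0.049 with clusters (adjusted p = 0.927), and the cause was not tested. Over the 60 class calls and all alternatives, 755 repeats stayed called, 110 fell short of the threshold and this 1 turned. Crabp1 in olfactory neuron-like cells moved from 1767 to 2630 CPM with thinned cells and 2710 CPM as a mean of the cells' own CPM, and Rarg in cartilage-like cells to 119 CPM with thinned cells. The sustentacular-like class was not in the fit with a stricter gate, which left 10 such cells in 2 captures only, and clusters gave neither that class nor a progenitor-like one, so their calls have no value there. Aldh1a1 and Cyp26a1 had the fewest UMIs of the 10 genes, 454 and 410 in all WT cells.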
